A study of Mus musculus with 4 samples.

Results

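The small leucine-rich proteoglycan genes Dcn, Bgn, Lum, Fmod, Ogn, Aspn and Prelp were followed in MC38 cells, a line from a mouse colon carcinoma, into which a vector with tetracycline-inducible (TetOn) CXCL14 had been stably introduced. They were taken from the expression table by gene symbol, and 7 of 7 were found among its 22186 genes. The 4 RNA sequencing libraries were 2 of cultures given doxycycline at 1 µg/mL, which turns TetOn vectors on, and 2 of control cultures of the same line given the solvent PBS. Both were harvested after 72 h. CXCL14 is a secreted chemokine, and the series title names epithelial-mesenchymal transition and the tumor microenvironment as the setting in which it was studied. No doxycycline-treated culture without the construct was analysed here, so an effect of the drug and an effect of induced CXCL14 cannot be told apart. The sources used here do not say whether the line is a single clone.

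Small leucine-rich proteoglycans are secreted proteins with a core of leucine-rich repeats, and many carry chondroitin, dermatan or keratan sulfate chains. In connective tissue they bind collagen fibrils and set their diameter and spacing. Decorin also binds TGF-beta and receptor tyrosine kinases, and soluble biglycan is a ligand of Toll-like receptors. In tumours these proteins are best known as products of the stromal fibroblasts.

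Levels are in TPM, a relative abundance of transcripts that takes gene length into account, so they can be compared between genes. Log2 fold changes are doxycycline minus control on log2(TPM + 1), a scale that understates the change of low genes. Changes written with -fold after a number are instead ratios of the group means in TPM. A gene was called at a Benjamini-Hochberg adjusted p under 0.05 in limma. The tables hold no read counts, so library depth is unknown. Cxcl14 checked the labels, with 385 and 391 TPM in the doxycycline cultures and 27.3 and 29.2 TPM in the controls. Of the 11359 genes that averaged 1 TPM or more over the 4 libraries, 64.4% were called, 29.0% as higher and 35.4% as lower, so a call alone sets no gene apart here. The series text calls the 2 cultures of a group biological replicates, and nothing in the labels says how they were separated. In these bulk libraries, fewer cells expressing a gene and less RNA per cell cannot be told apart.

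Of the 7 proteoglycan genes, 4 fell after doxycycline (Dcn, Prelp, Bgn and Fmod), 2 rose (Ogn and Aspn) and 1, Lum, was too low to test. Dcn, the most abundant of them in every library, fell 6.67-fold, while Ogn, second to Dcn in every library, rose 4.10-fold. All 6 tested members were thus called, against 64.4% of all genes tested, with 4 of 6 lower (background 35.4%) and 2 of 6 higher (background 29.0%). Each of the 6 had a mean above 1 TPM in both groups. The count of higher members was 1 without doxycycline replicate 1, without control replicate 1 and without control replicate 2, where the call of Aspn was lost. The 4 falls and the rise of Ogn were called in each of the 14 alternative settings tried.

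Dcn encodes decorin, the prototype of the family, whose single chondroitin or dermatan sulfate chain and collagen-binding core organise type I collagen fibrils. It stood at 485 and 464 TPM in the doxycycline cultures, against 3075 and 3259 TPM in the controls. Both doxycycline libraries were far below both controls, and replicates lay close together. The means were 474 ± 15.0 TPM after doxycycline and 3167 ± 129.9 TPM in the controls (SD, n = 2 each). The log2 fold change was -2.74 with SE 0.07 (limma adjusted p = 9.6e-09), which ranked 72 among 11359 genes by size. Ordered by TPM among all genes of its library, Dcn was number 257 and 273 in the doxycycline cultures and number 14 and 15 in the controls. Decorin mRNA was thus among the most abundant transcripts of the control cells and remained well expressed after doxycycline.

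Bgn encodes biglycan, the closest relative of decorin, which carries a pair of chondroitin or dermatan sulfate chains. It was listed at 11.6 and 9.63 TPM in the doxycycline cultures and 23.2 and 25.6 TPM in the controls. The groups did not overlap, and Bgn was far less abundant than Dcn, with a log2 ratio of Dcn to Bgn of 5.27 and 5.45 after doxycycline and 6.99 and 6.94 in the controls. The log2 fold change was -1.13 with SE 0.11 (limma adjusted p = 1.6e-05).

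Prelp encodes a proline- and arginine-rich member whose basic amino terminus binds heparin and heparan sulfate and links basement membranes to the matrix. Its values were 5.18 and 4.0 TPM in the doxycycline cultures and 20.0 and 19.9 TPM in the controls, a 4.35-fold fall. Both doxycycline libraries were well below the controls, whose SD was 0.0775 TPM (n = 2). The log2 fold change was -1.92 with SE 0.12 (limma adjusted p = 1.3e-06). An antisense gene of the GENCODE M21 annotation, Gm15851, shares 350 exon bases with Prelp. The sources used here do not say whether the counting used strand, and without strand the reads of Prelp and Gm15851 could not be told apart.

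Fmod encodes fibromodulin, a keratan sulfate proteoglycan that binds collagen and modulates its cross-linking. It stood at 8.55 and 5.66 TPM in the doxycycline cultures and at 12.0 and 11.5 TPM in the controls. The groups did not overlap, but the 2 doxycycline cultures differed more from each other than the 2 controls did. Its log2 fold change of -0.68 with SE 0.16 was the smallest of the 4 falls (limma adjusted p = 0.0045). The call came near the threshold with no filter on low genes (limma adjusted p = 0.048) and under quantile normalization (limma adjusted p = 0.041).

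Lum encodes lumican, another keratan sulfate proteoglycan, best known from the cornea. It was listed at 0 in both doxycycline libraries and at 0.153 and 0.210 TPM in the controls, under the filter of 1 TPM. No fold is given for a group listed at 0.

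Ogn encodes osteoglycin, also called mimecan, a small member of connective tissue, bone and vessel walls. It stood at 162.7 and 125.0 TPM in the doxycycline cultures and 30.7 and 39.6 TPM in the controls. Both doxycycline libraries were well above both controls. The means were 144 ± 26.7 TPM after doxycycline and 35.1 ± 6.31 TPM in the controls (SD, n = 2 each), with a log2 fold change of 2.0 and SE 0.14 (limma adjusted p = 2.3e-06). By TPM among all genes of its library, Ogn was number 1201 and 1717 in the doxycycline cultures and number 6182 and 5224 in the controls.

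Aspn encodes asporin, a class I member with an aspartate-rich amino terminus that binds collagen and, in cartilage, TGF-beta. It was listed at 2.31 and 1.53 TPM in the doxycycline cultures and 0.864 and 1.24 TPM in the controls. The groups did not overlap, yet the gap between them was smaller than the difference between the doxycycline replicates. The log2 fold change was 0.50 with SE 0.19 (limma adjusted p = 0.045, range over 12 alternatives 0.0054 to 0.31). The call was lost in 4 of these, with adjusted p = 0.31 without doxycycline replicate 1, 0.21 without control replicate 1, 0.054 without control replicate 2 and 0.083 with no filter on low genes. The direction was the same in all 12. It could not change where a replicate was left out, as the groups did not overlap, or where the estimate itself stayed the same.

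**Figure D1:**
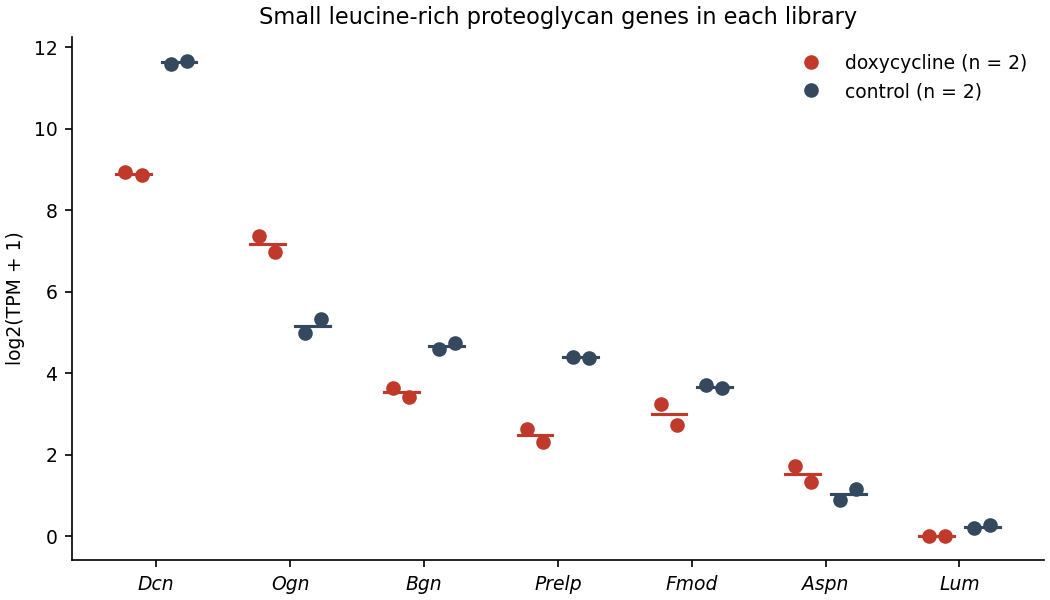
Level of each of the 7 genes as log2(TPM + 1) in each library, with points for single libraries and short lines for the mean of 2, doxycycline left and control right of each gene. Dcn, Bgn, Prelp and Fmod lie lower after doxycycline and Ogn and Aspn higher, while Lum lies at or near 0 in all 4 libraries.

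The order of the genes by level differed at a single place. In the doxycycline cultures it ran Dcn, Ogn, Bgn, Fmod, Prelp, Aspn and Lum, and in the controls Dcn, Ogn, Bgn, Prelp, Fmod, Aspn and Lum. No 2 neighbours in either order overlapped in TPM between their 2 libraries, although with 2 libraries a group this is a narrow basis. Fmod and Prelp changed places: the log2 ratio of Fmod to Prelp was 0.63 and 0.41 in the doxycycline cultures and -0.69 and -0.74 in the controls. For Ogn against Prelp the log2 ratio was 4.73 and 4.65 in the doxycycline cultures, against 0.59 and 0.96 in the controls. The log2 ratio of Dcn to Ogn was 1.57 and 1.88 in the doxycycline cultures, against 6.60 and 6.33 in the controls. Of 15 such pairs of tested members, each gave p = 0.33 in a two-sided exact permutation test over the 4 libraries (adjusted p = 0.33), which is the smallest that 2 against 2 libraries can give.

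Summed over the 7 genes, the proteoglycan transcripts made up 675 and 610 TPM in the doxycycline cultures and 3162 and 3357 TPM in the controls, a 5.07-fold lower sum after doxycycline. Dcn was the largest component in both groups. The share of Dcn in the sum was 74.0 ± 3.01% in the doxycycline cultures and 97.2 ± 0.122% in the controls (SD, n = 2 each). The share of Ogn was 22.3 ± 2.54% in the doxycycline cultures and 1.07 ± 0.148% in the controls. Bgn, Fmod and Prelp made up 1.65%, 1.10% and 0.712% of the doxycycline sum on average, against 0.748%, 0.361% and 0.614% of the control sum. The mean shares of these 3 genes were thus higher after doxycycline although their levels were lower.

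**Figure D2:**
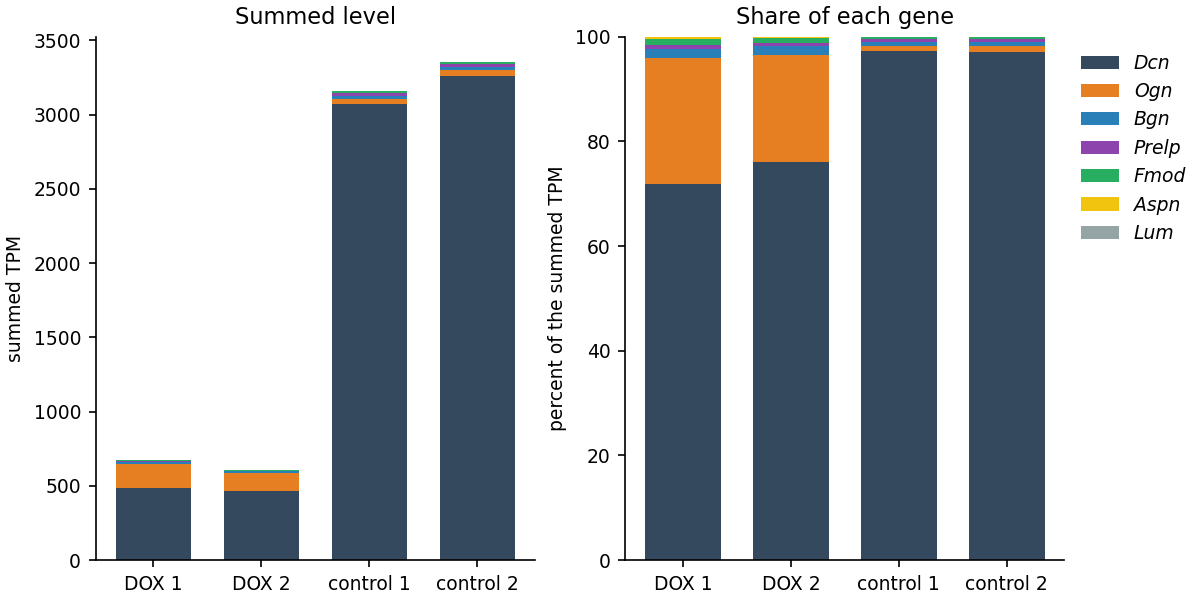
Stacked TPM of the 7 genes in each library (left, summed TPM) and the percent of that sum held by each gene (right). The sum is 675 and 610 TPM in the doxycycline cultures and 3162 and 3357 TPM in the controls, and Ogn holds 24.1% and 20.5% of it in the doxycycline cultures against 0.970% and 1.18% in the controls.

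Of 11 further genes of the family, 4 passed the filter, and 1 rose and 3 fell, beside a background of 29.0% higher and 35.4% lower. Omd, which encodes osteomodulin, a keratan sulfate proteoglycan of bone, stood at 8.86 and 7.85 TPM in the doxycycline cultures and 2.53 and 3.06 TPM in the controls (log2 fold change 1.30, SE 0.13, limma adjusted p = 2.6e-05). Tsku, which encodes tsukushi, a secreted modulator of Wnt and BMP signalling, had 22.1 and 19.4 TPM in the doxycycline cultures and 33.5 and 28.6 TPM in the controls (log2 fold change -0.56). Podnl1 and Chadl, relatives of podocan and chondroadherin, had log2 fold changes of -0.87 and -0.64. Podnl1 passed the filter only through the controls, at 2.29 ± 0.892 TPM against 0.777 ± 0.171 TPM after doxycycline (SD, n = 2 each). Its call was lost without control replicate 1 and under quantile normalization, and that of Chadl under quantile normalization. The remaining 7, among them Kera, Epyc and Optc, had means below 1 TPM over the 4 libraries.

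**Figure D3:**
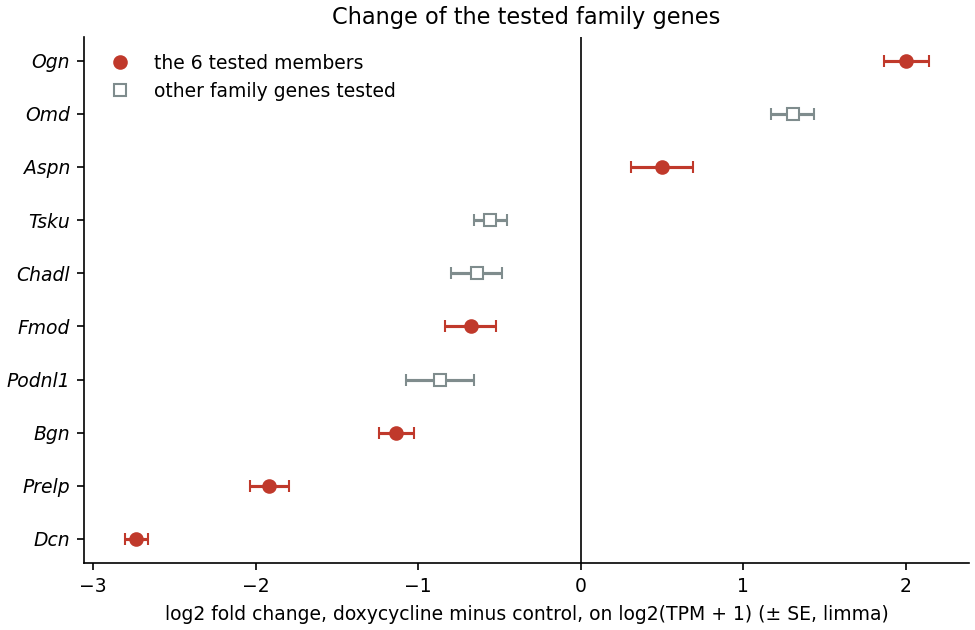
Log2 fold change, doxycycline minus control, with its limma SE, for the 6 tested members (filled circles) and the 4 other tested genes of the family (open squares). Ogn, Omd and Aspn lie to the right of 0, and the other 7 genes to the left, with Dcn farthest at -2.74.

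Most of these genes sit beside each other in the mouse genome. In the gene order of RefSeq assembly GRCm38.p6, Aspn, Omd and Ogn are consecutive protein-coding genes of chromosome 13, Optc, Prelp and Fmod of chromosome 1, and Dcn, Lum, Kera and Epyc of chromosome 10, while Bgn is on chromosome X without a relative beside it. The 3 family genes called higher, Aspn, Omd and Ogn, were these neighbours on chromosome 13, and those called lower included the neighbours Prelp and Fmod. The genes that follow Ogn there, Nol8, a nucleolar protein, and Iars, the cytosolic isoleucyl-tRNA synthetase, also rose. Nol8 had 62.0 ± 1.84 TPM after doxycycline and 23.7 ± 1.41 TPM in the controls, and Iars had 436 ± 8.56 TPM after doxycycline and 194 ± 8.28 TPM in the controls (SD, n = 2 each). Cenpp, a centromere protein gene whose span holds Aspn, Omd and Ogn on the opposite strand, fell (log2 fold change -0.56, limma adjusted p = 7.2e-04). It shares 0 exon bases with Ogn and Omd and 7 with Aspn in GENCODE M21. Ecm2, next to Aspn, had means below 1 TPM. On chromosome 1, Btg2, the gene beside Fmod, also fell (log2 fold change -0.52). Chil1, farther on, which encodes a chitinase-like protein, had 0.762 ± 0.236 TPM after doxycycline and 47.2 ± 4.86 TPM in the controls (SD, n = 2 each), and so passed the filter only through the controls. On chromosome 10, Btg1, an antiproliferative gene on one side of Dcn, fell by 1.06 on the log2 scale, and Eea1, farther out on that side, rose (log2 fold change 0.33). Lum, Kera and Epyc on the other side of Dcn were below 1 TPM. On chromosome X, the tested neighbours of Bgn were Haus7 and Dusp9, both called lower (log2 fold change -0.28 and -0.22).

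**Figure D4:**
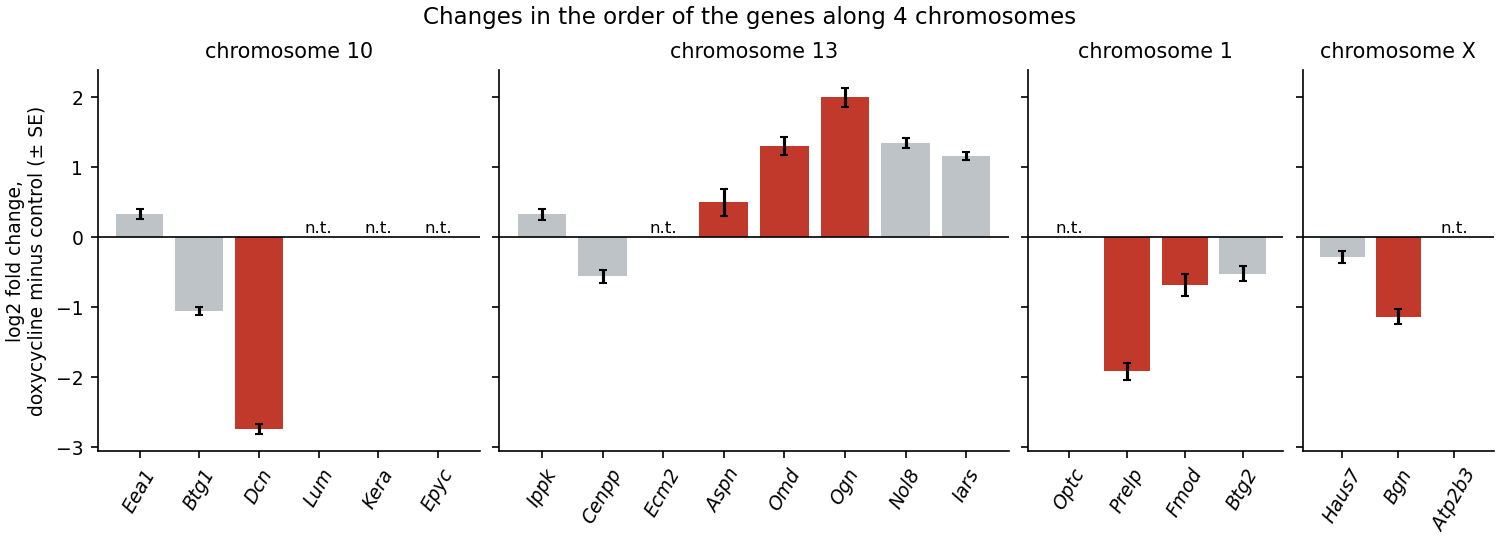
Log2 fold change, doxycycline minus control, with SE, of genes in their order along chromosomes 10, 13, 1 and X of GRCm38.p6, red for proteoglycan genes and grey for others, with n.t. for genes too low to test. The bars of Aspn, Omd, Ogn, Nol8 and Iars are above 0, whereas Dcn, Prelp, Fmod and Bgn are below it.

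To show the sequence at the starts of genes that moved in opposite directions, promoter windows were set side by side. Windows of 250 bases upstream of the annotated start came from RefSeq, build GRCm38.p6, in which 5 of the 7 members matched. Dcn and Lum had no window there. Ogn (chr13:49607765-49608014, plus strand) and Omd (chr13:49582212-49582461, plus strand) are shown for the rises, and Prelp (chr1:133921402-133921651, minus strand) and Bgn (chrX:73483351-73483600, plus strand) for the falls. Each runs 5′ to 3′, with capitals marking matches to the motifs named after them.
Ogn: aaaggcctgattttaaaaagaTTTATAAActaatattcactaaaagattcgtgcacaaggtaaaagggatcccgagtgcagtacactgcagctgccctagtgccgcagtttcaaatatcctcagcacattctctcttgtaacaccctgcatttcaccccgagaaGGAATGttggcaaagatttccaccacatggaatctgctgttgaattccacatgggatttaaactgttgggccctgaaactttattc
Omd: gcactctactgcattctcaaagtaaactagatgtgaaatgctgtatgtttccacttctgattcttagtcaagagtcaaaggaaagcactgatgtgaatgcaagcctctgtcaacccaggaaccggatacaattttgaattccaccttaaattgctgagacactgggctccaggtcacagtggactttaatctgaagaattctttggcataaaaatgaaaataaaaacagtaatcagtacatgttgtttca
Prelp: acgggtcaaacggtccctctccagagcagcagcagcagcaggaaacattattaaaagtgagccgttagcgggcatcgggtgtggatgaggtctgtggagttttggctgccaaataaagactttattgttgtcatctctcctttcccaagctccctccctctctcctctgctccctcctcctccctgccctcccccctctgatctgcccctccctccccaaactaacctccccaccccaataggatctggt
Bgn: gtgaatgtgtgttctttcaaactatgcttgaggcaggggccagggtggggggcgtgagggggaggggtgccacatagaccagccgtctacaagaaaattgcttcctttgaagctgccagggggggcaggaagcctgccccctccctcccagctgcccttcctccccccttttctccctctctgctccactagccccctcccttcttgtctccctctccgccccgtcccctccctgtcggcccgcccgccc
The windows differ in base composition: G and C made up 42.0% of that of Ogn, 38.4% of that of Omd and 30.0% of that of Aspn, against 64.4% for Bgn, 55.6% for Prelp and 51.2% for Fmod. The median of all 32851 windows was 52.4%. The motifs searched, on both strands, were the TATA box TATAAA, the AP-1 site TGACTCA, the C/EBP-ATF element TGATGNAA, the MYC E-box CACGTG, the NF-kappaB site, the TEAD site GGAATG and the SMAD element GTCTAGAC. Ogn held an overlapping pair of TATA box matches, far upstream of the start at -229 and -227, and 1 TEAD match at -86. Aspn held TATA box matches at -207 and -178. TATAAA occurred in 12.4% of all windows and GGAATG in 12.6%. Omd, Prelp, Bgn and Fmod held none of the 7 motifs, which says only that these letters are not in these windows. The other 5 motifs occurred in 4.46%, 3.45%, 6.02%, 1.41% and 0.167% of all windows, in the order given above without the TATA and TEAD motifs.

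The enzymes that build the sulfated chains mostly fell. Of 27 genes of chondroitin and dermatan sulfate synthesis, 24 were tested, and 17 fell and 1 rose, beside a background of 35.4% lower and 29.0% higher. The median log2 change was -0.72 against -0.04 for all genes tested. Xylt1, the xylosyltransferase that starts the chain on the core protein, fell to 7.24 ± 0.369 TPM after doxycycline, against 38.4 ± 2.94 TPM in the controls (SD, n = 2 each; log2 fold change -2.25, limma adjusted p = 1.2e-07). Its paralog Xylt2 fell less, with 24.8 and 24.5 TPM after doxycycline and 43.3 and 39.2 TPM in the controls. Ust, the sulfotransferase that acts on uronic acid, had 26.3 ± 0.0409 TPM after doxycycline and 91.1 ± 0.651 TPM in the controls. Pxylp1, the phosphatase that releases the linker for extension, and Chst12, a chondroitin 4-O-sulfotransferase, had log2 fold changes of -1.5 and -1.35. Dse, the epimerase that turns chondroitin into dermatan sulfate, had 47.0 and 45.2 TPM after doxycycline and 78.4 and 75.6 TPM in the controls. Of the enzymes that build or modify the linker, B3gat3, the glucuronosyltransferase that completes it, fell by 0.29 on the log2 scale (limma adjusted p = 0.0037). B4galt7, B3galt6 and Fam20b were not called, with log2 differences of -0.16, 0.10 and -0.08. The member that rose was Csgalnact2 (log2 fold change 0.36), and without control replicate 1, or with either rescaling of the libraries, 2 members were called higher. Csgalnact1 and Chsy3 passed the filter only through the controls.

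Keratan sulfate is carried by fibromodulin, lumican and osteomodulin. Of 9 genes of its synthesis, 5 were tested, and 3 fell and 0 rose, beside a background of 35.4% lower and 29.0% higher. Chst2, a 6-O-sulfotransferase, stood at 5.65 ± 0.159 TPM after doxycycline and 17.7 ± 0.358 TPM in the controls (SD, n = 2 each; log2 fold change -1.49, limma adjusted p = 1.6e-06). Fut8, the core fucosyltransferase, and B4galt1, a galactosyltransferase, had log2 fold changes of -1.03 and -0.56. B3gnt7, Chst4 and Chst5 were listed at 0 in all 4 libraries.

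Genes of proteases that cleave or mature these proteins, listed with the protease enhancer Pcolce, mostly fell as well. Of 17 listed, 10 were tested, and 8 were lower and 1 higher, beside a background of 35.4% lower and 29.0% higher. The median log2 change was -0.97, and Pcolce was not called. Among the 8, Adamts5, an aggrecan-cleaving protease, passed the filter only through the controls, with 0.436 ± 0.0957 TPM after doxycycline and 1.79 ± 0.127 TPM in the controls (SD, n = 2 each). Mmp2, Mmp3 and Adamts4, which degrade decorin or related proteoglycans, had log2 fold changes of -2.09, -1.94 and -2.08, and Adamts1 one of -1.10. Bmp1, which removes the propeptides of biglycan and osteoglycin, had 46.0 and 42.2 TPM after doxycycline and 79.6 and 72.7 TPM in the controls (limma adjusted p = 2.0e-05). The member that rose was Htra1, a secreted serine protease able to cleave decorin and biglycan, with 328 and 333 TPM after doxycycline and 244 and 234 TPM in the controls.

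Among receptors and growth factors bound by these proteins, 11 of 15 tested fell and 1 rose, of 21 listed. The background was 35.4% lower and 29.0% higher, and the median log2 change of the list was -0.59. Tlr2 and Cd14, through which soluble biglycan signals, had log2 fold changes of -2.56 and -2.37. Tlr4, the other receptor of biglycan, had 18.7 and 18.5 TPM after doxycycline and 32.3 and 39.5 TPM in the controls. Lrp1, an endocytic receptor of decorin, and Bmp2, a ligand bound by biglycan, had log2 fold changes of -1.11 and -2.16. The TGF-beta ligands Tgfb1, Tgfb2 and Tgfb3 had log2 fold changes of -0.59, -1.08 and -0.85. Of the receptor kinases bound by decorin, Met had 29.8 and 29.6 TPM after doxycycline and 28.9 and 29.9 TPM in the controls, and Egfr 2.22 and 1.21 TPM after doxycycline and 2.39 and 1.22 TPM in the controls. Neither was called, and their groups overlapped. Igf1r, another receptor kinase bound by decorin, had 8.05 and 7.76 TPM after doxycycline and 11.3 and 10.4 TPM in the controls and was called lower (log2 fold change -0.41, limma adjusted p = 0.0064), a call lost under quantile normalization (adjusted p = 0.19). Erbb4 and Kdr were listed at 0 in all 4 libraries. Ccn4, a matricellular protein bound by decorin and biglycan, rose (log2 fold change 0.65).

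The collagens to which the proteoglycans bind gave counts near the background of all genes. In this list of 16, which also holds the genes of fibrillin 1, elastin and tenascin X, 11 were tested, 4 fell and 2 rose, with a median of 0.07, where 35.4% of all genes tested were called lower and 29.0% higher. Col6a1 and Col6a2, chains of type VI collagen bound by decorin and biglycan, fell to 105 ± 17.3 and 55.4 ± 10.4 TPM after doxycycline, against 384 ± 3.86 and 142 ± 0.862 TPM in the controls (SD, n = 2 each). Col5a2, a chain of type V collagen, rose (log2 fold change 2.22, limma adjusted p = 1.3e-08). The classical partner of decorin, type I collagen, was nearly absent: Col1a1 had 3.39 and 2.02 TPM after doxycycline and 2.43 and 2.14 TPM in the controls, and Col1a2 was below 1 TPM in every library. Col3a1 fell by 0.74 on the log2 scale. Without doxycycline replicate 2, 4 members of this list were called higher.

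Other proteoglycans, which lack the leucine-rich core, showed 9 lower and 2 higher of 13 tested among 23, with a median of -0.86. The background was 35.4% lower and 29.0% higher. Vcan, which encodes versican, a large hyaluronan-binding proteoglycan, had 48.9 ± 6.34 TPM after doxycycline and 136 ± 10.2 TPM in the controls (SD, n = 2 each; log2 fold change -1.47, limma adjusted p = 1.4e-06). Col18a1, Sdc3 and Prg4 had log2 fold changes of -1.34, -1.05 and -1.02, and Prg4 passed the filter only through the controls. Gpc1 and Gpc6, glypicans anchored to the cell surface, were the members that rose (log2 fold change 0.32 and 0.42).

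**Figure D5:**
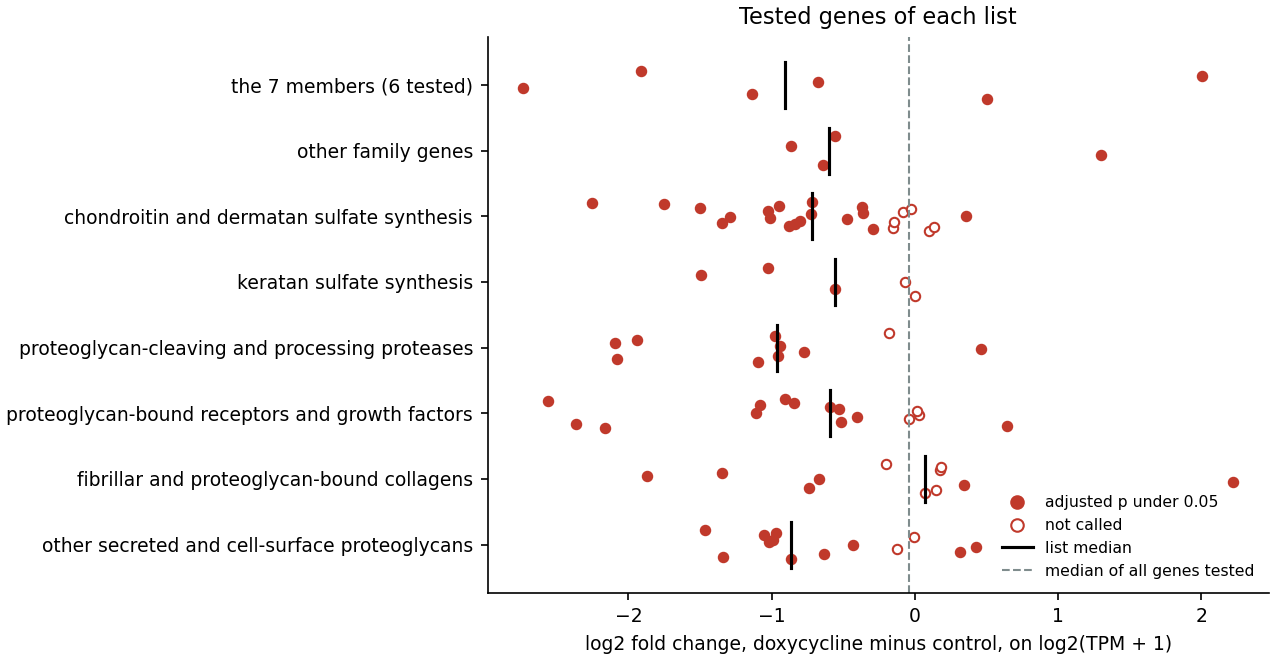
Log2 fold change, doxycycline minus control, of each tested gene in the proteoglycan set and in 7 lists of related genes, filled where called and open where not, with the list median as a bar and the median of all genes tested as a dashed line at -0.04. The medians of 7 of the 8 rows lie below that line, and the collagen row lies above it at 0.07.

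The genes whose profiles over the 4 libraries were most like each member were found by the root mean square difference of log2(TPM + 1), each gene centred on its own mean. For Dcn they were Dab2, Id3 and Fbxo32, at 0.0365 to 0.0472. Dab2 stood at 35.9 ± 3.02 TPM after doxycycline and 243 ± 9.61 TPM in the controls (SD, n = 2 each). For Prelp they were Col6a1, Dap and Cd300lb (0.0259 to 0.0318), for Bgn Apbb2, Elk3 and Gnao1 (0.0153 to 0.0236), and for Fmod Adm, Mcub and Car9 (0.0208 to 0.0615). Ogn was most like Fbln5, at 0.0522, and then Adm2 and Actg2, at 0.148 and 0.163. Fbln5, which encodes the elastic fibre protein fibulin 5, had 53.6 ± 11.1 TPM after doxycycline and 11.8 ± 2.50 TPM in the controls. Aspn was most like Senp8, Adtrp and Senp2 (0.0612 to 0.0679). Likeness over 4 libraries in 2 groups mostly matches the size of the change.

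Markers of cell types were read beside these results. Of 10 colon epithelial markers, all had means below 1 TPM, with sums of 0.0774 to 0.459 TPM in the doxycycline cultures and 0.571 to 0.836 TPM in the controls. Cdh1, Krt19 and Cdx2 were listed at 0 throughout, which goes against the label of a colon carcinoma as far as these genes define one. Of 12 fibroblast markers outside the proteoglycans, 8 were tested, 6 fell and 1 rose, beside a background of 35.4% lower and 29.0% higher. Sums of all 12 markers were 412 to 482 TPM after doxycycline and 1054 to 1087 TPM in the controls. Among them Pdgfra had 34.1 and 26.8 TPM after doxycycline and 350.1 and 358 TPM in the controls, and Dpt, which encodes the decorin-binding dermatopontin, fell by 1.72 on the log2 scale. Postn, which encodes periostin, is counted among the 6 and passed the filter only through the controls, with 0.599 and 0.302 TPM after doxycycline and 1.55 and 2.11 TPM in the controls. Acta2 rose, having passed the filter only through the doxycycline cultures, Thy1 was listed at 0 in all 4 libraries, and Fap and Col1a2 were below 1 TPM in each. Their part in the falls of Dcn, Prelp, Bgn and Fmod was not tested. Sums of 10 macrophage markers were 1.18 to 1.47 TPM after doxycycline and 1.45 to 1.59 TPM in the controls, and those of 8 endothelial markers 0.151 to 0.197 TPM after doxycycline and 0.617 to 0.710 TPM in the controls.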

How the data were processed

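Per the labels, MC38 cells carrying an inducible CXCL14 construct received doxycycline or PBS, RNA was purified on columns, and libraries were made with an mRNA kit. The authors deposited TPM and FPKM per gene symbol, per the file headers. The build was mm39, per the submitters' processing notes, and of the aligner, quantifier, annotation and strand setting each is not given in the sources used here. Within a library, TPM were FPKM times a constant of 3.08 to 3.14.

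Genes averaging 1 TPM or more were tested on log2(TPM + 1) in R 4.3.3 with limma 3.58.1 (lmFit, eBayes with trend; 2 residual and 6.98 prior degrees of freedom), doxycycline against control without a covariate. P-values were adjusted by Benjamini-Hochberg over 11359 genes. The test was tried on simulated data in which few genes changed. As 64.4% of genes were called here, that trial does not measure the false calls in these data. Groups came from sample titles. Named genes are the members, Cxcl14, up to 4 called genes per list with the largest change, the 3 most alike genes per member, and annotated neighbours. Other list members were named after their values were seen. The members and lists were chosen with earlier results of these data known. No set test was made.

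Copies were sought with blastn 2.17.0 in GENCODE M21 transcripts at 97% identity over at least 100 bases. Outside the Prelp antisense gene, none was found for the 7 members.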

Additional observations from a re-analysis of the deposited data

How the results depend on the processing

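The calls of Dcn, Prelp, Bgn, Fmod and Ogn kept their side of the threshold and their direction in 14 of 14 alternatives: each replicate left out, a replicate block, eBayes robust or without trend, quantile normalization, scaling by median of ratios, FPKM for TPM together with a filter at 1 FPKM, a filter at 5 TPM or none, and pseudocounts of 0.5 and 0.1. Their log2 fold changes ranged from -2.81 to -2.69 for Dcn, -2.11 to -1.58 for Prelp, -1.25 to -0.96 for Bgn, -0.94 to -0.42 for Fmod and 1.81 to 2.19 for Ogn. In many of these alternatives the direction could not change. Altering only the TPM filter, the eBayes option or the block left each estimate as it was. Leaving out a replicate could not reverse groups that did not overlap. Members called higher numbered 1 in place of 2 with no filter (Aspn at 0.50, adjusted p = 0.083), and with the filter at 5 TPM or 1 FPKM, under which Aspn was not tested. With replicates left out that count ranged from 1 to 2, and the log2 fold change of Aspn from 0.31 to 0.69. With no filter Lum entered the test and was called lower (log2 fold change -0.24, limma adjusted p = 0.016). That call rests on values near the floor, 0 in both doxycycline libraries and 0.153 and 0.210 TPM in the controls. Median-of-ratios scaling and quantile normalization moved the median change of all genes by 0.04 and 0.09.

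The equal replicate numbers in the titles are not said to mark a shared stock or day, and deviations of same-numbered libraries did not go together (r = -0.005 over 11359 genes). With the replicate block 3387 genes were higher and 4114 lower, against 3295 and 4017 without it, and members called stayed at 2 higher and 4 lower.

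List counts moved by over 1.5 times in 11 of 308 recounts. Other family genes lower numbered 1 in place of 3 with the filter at 5 TPM, with FPKM filtered at 1 FPKM and under quantile normalization. Chondroitin and dermatan sulfate genes higher numbered 2 in place of 1 under both scalings and without control replicate 1. Collagens higher numbered 4 in place of 2 with the block and without doxycycline replicate 2. Fibroblast markers higher numbered 0 in place of 1 with the filter at 5 TPM and with FPKM filtered at 1 FPKM, and endothelial markers lower 1 in place of 0 with no filter. Of the 105 recomputed ratios between members, 0 changed direction and 20 moved by more than the replicate SD. All 20 moved with another pseudocount or with FPKM. Ratios recomputed without a replicate could not move by this rule, as the SD of 2 values exceeds the shift from dropping either. Nor could they change direction, as no ratio overlapped between the groups. The FPKM setting changed the unit and raised the filter at once.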
